A study of Mus musculus with 6 samples.

Results

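The zinc, iron and copper handling genes are the transporters, binding proteins and regulators through which cells take up, store and release these metals. They were chosen by symbol, from the zinc transporter families *Slc30a* and *Slc39a*, the metallothioneins with their transcription factor, and the genes of iron uptake, storage, export, heme breakdown and copper transport. The choice took 55 of the 23420 genes in the table and falls into 9 roles. RNA was taken from uteri of C57BL/6J females at 8 weeks of age, mated with vasectomized males. The uteri were collected at pseudopregnancy day (PPD) 4.5, the time at which the uterus becomes receptive to the embryo. Control females were *Foxo1f/f*. Conditional knockout females were PgrCre/+ *Foxo1f/f*, called *Foxo1d/d*, so both genotypes carry the floxed *Foxo1* alleles and only *Foxo1d/d* carries Cre. Cre is expressed from the *Pgr* locus, which is active in uterine epithelium and stroma and also in the ovary and pituitary, so a difference in the uterus need not arise in 1 cell type. Each genotype has 3 libraries, and each library holds the pooled RNA of 2 mice. The comparison asks which metal handling genes differ in the uterus at receptivity after deletion of *Foxo1* by this Cre. Effects of Cre at the *Pgr* locus and of the loss of *Foxo1* cannot be told apart in it.

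Zinc enters the cytosol through the ZIP proteins, encoded by the *Slc39a* genes, and leaves it, to the outside or into organelles, through the ZnT proteins, encoded by the *Slc30a* genes. Metallothioneins bind zinc and copper in the cytosol, and their genes are switched on by the zinc sensor MTF1 and by glucocorticoids. Iron arrives on transferrin, is reduced and released in endosomes, is stored in ferritin and leaves through ferroportin, and the iron regulatory proteins adjust the messages for these steps. Copper enters through CTR1 and is moved by a pair of copper ATPases. In the mouse uterus, metallothionein messages are known to be high in the decidua.

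The mean counts of the 3 libraries summed over all genes came to 26125014 for *Foxo1f/f* and to 27257963 for *Foxo1d/d*. The counts were used as genotype means, so no SD between pools and no test between genotypes could be given. The log2 ratio is that of the *Foxo1d/d* over the *Foxo1f/f* mean count, after a pseudocount of 1 was added to both and the totals were scaled. Its 95% interval comes from the summed counts and covers counting error only. Levels of different genes are compared as CPM per kb, that is counts scaled to a total of 1000000 per genotype and divided by the exon length in kb. *Foxo1* itself, on chromosome 3, averaged 3941 counts in *Foxo1f/f* against 1456 in *Foxo1d/d*, which gives -1.498 on the log2 scale (interval -1.55 to -1.45). The whole gene was counted, so this value includes exons outside the deleted part and RNA of cells without Cre.

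Of the 55 genes, 47 averaged at least 10 counts across the genotypes. Among these, 3 were at least 1.5-fold higher in *Foxo1d/d*, which is 6.38%, beside 5.43% of all 15696 genes past that count. Lower by at least 1.5-fold were 2, which is 4.26%, beside 3.51% of all such genes. At this count minimum the shares lie close to those of the whole table, so the count says nothing particular about metal handling genes. The median log2 ratio of the 47 was 0.03 and that of all 15696 genes 0.02, and the median size of the ratio was 0.13 and 0.14. Ratios above 0 belonged to 25 of the genes and ratios below 0 to 22, of which *Slc39a9* (0.02) changes sides when the scaling is changed. The genes took 0.468% of all counts in control uteri and 0.463% in *Foxo1d/d*.

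The higher genes were the zinc importer gene *Slc39a2* and the metallothionein genes *Mt2* and *Mt1*. The lower genes were *Steap1*, of a family of metal reductases, and the zinc importer gene *Slc39a8*. Closest to the 1.5-fold line, which lies at 0.58 on the log2 scale, were *Mt1* just past it at 0.66 and *Slc39a14* just short of it at 0.57. On the lower side the nearest gene short of the line was *Slc39a4* at -0.48. Counting error is small for most of these genes. The interval of the ratio left out 0 for 35 of the 47, and it did so for 63.6% of all genes, so such an interval does not set a gene apart from the rest of the table.

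**Figure D1:**
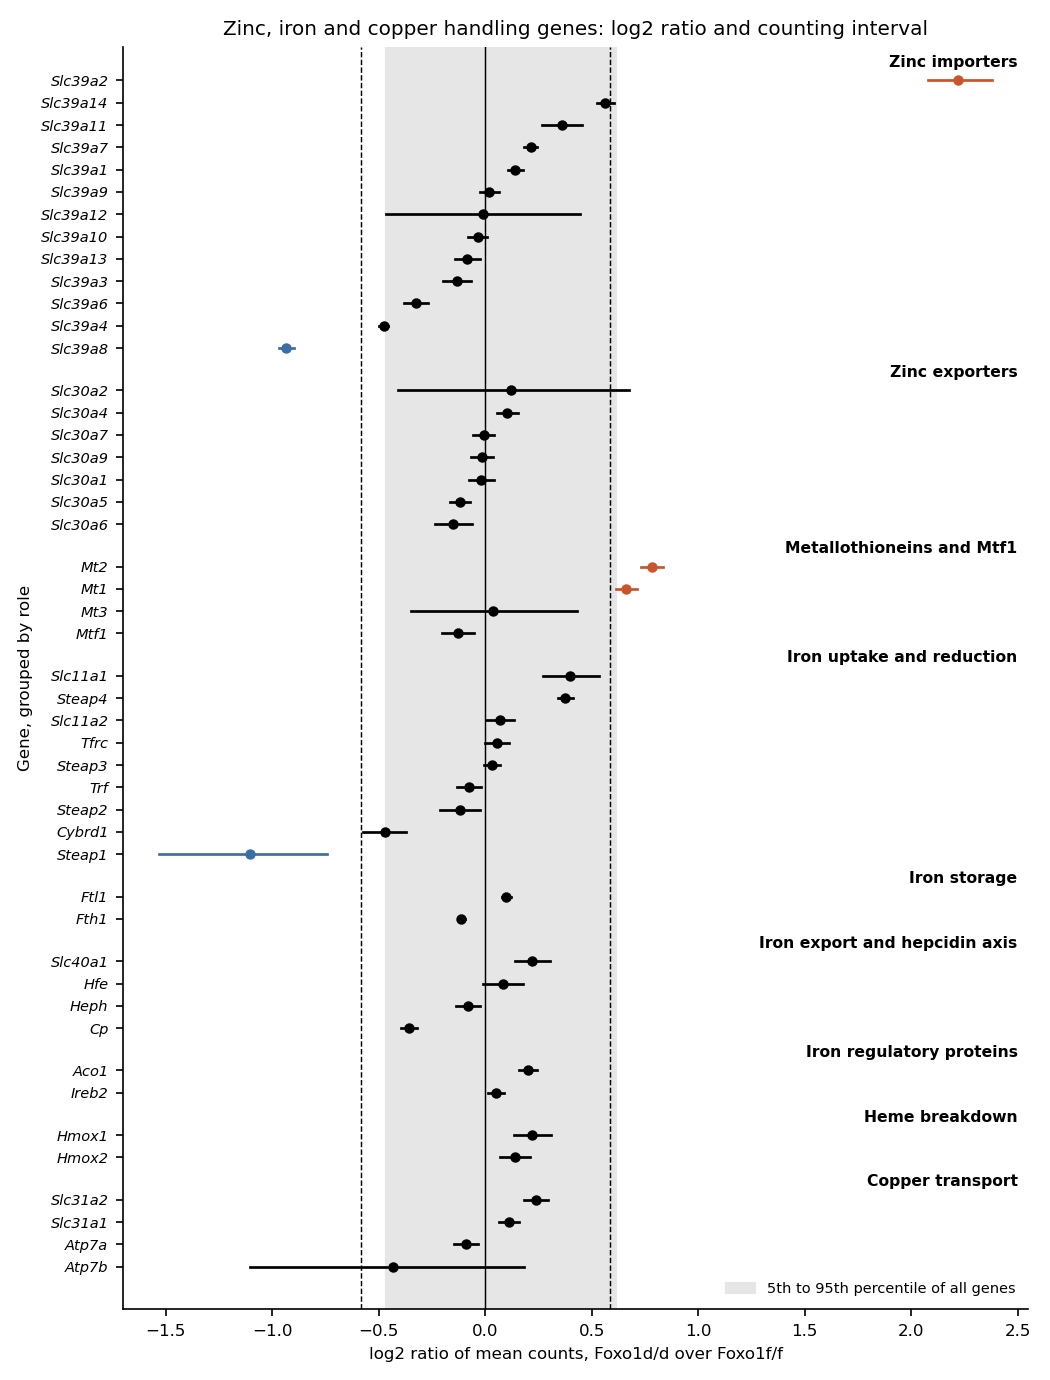
Log2 ratio of the mean counts, *Foxo1d/d* over *Foxo1f/f*, for the 47 genes averaging at least 10 counts, grouped by role; points are ratios, bars the 95% counting intervals, dashed lines 1.5-fold and the grey band the 5th to 95th percentile of all genes (-0.47 to 0.62). *Slc39a2* lies far to the right at 2.22, and the zinc exporters all lie between -0.15 and 0.12.

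The spread of ratios over all genes gives a scale for these values, since genes with more counts spread less. Among the 7103 genes whose counts averaged 1000 or more, the 5th and 95th percentiles were -0.32 and 0.33. Of the 32 metal handling genes in that range, 8 lay outside these limits. Above them were *Mt2*, *Mt1*, *Slc39a14* and *Steap4*, and below them were *Slc39a8*, *Slc39a4*, *Cp* and *Slc39a6*. Of the 10 with a mean count from 100 to 1000, *Slc39a2* lay above and *Cybrd1* below the limits of -0.44 and 0.58. Of the 5 with fewer counts, *Steap1* lay below the lower limit of -0.89. By construction 1 gene in 10 of the table lies outside its limits.

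**Figure D2:**
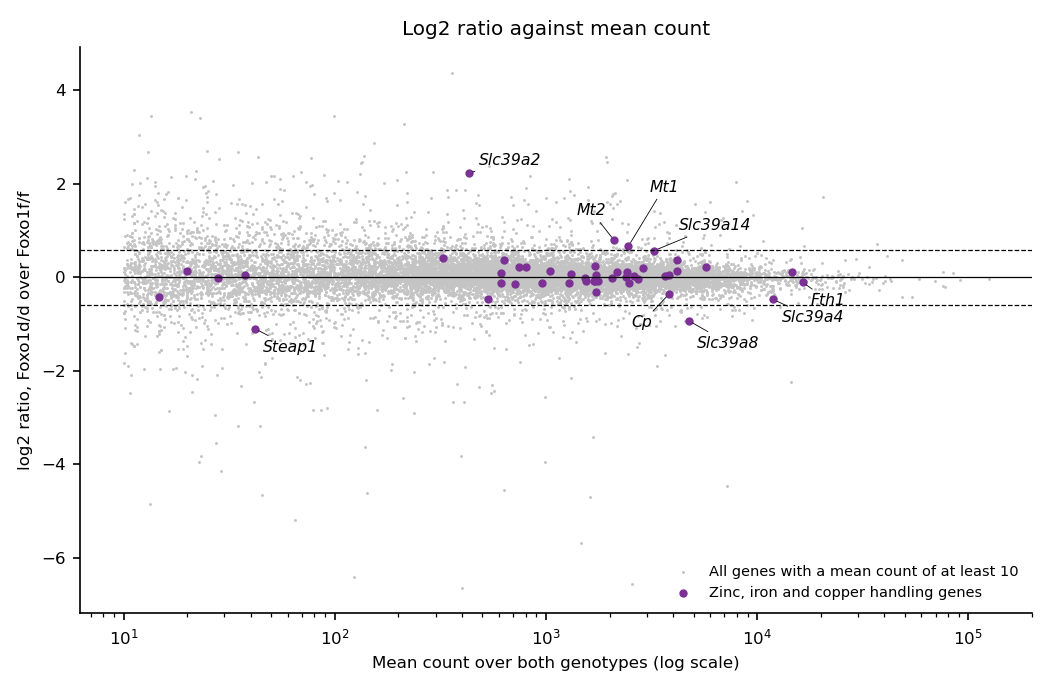
Log2 ratio against the mean count over both genotypes (log scale) for all 15696 genes averaging at least 10 counts (grey) and the 47 metal handling genes among them (purple); dashed lines mark 1.5-fold. The grey cloud narrows to the right, with single genes far outside it, and *Slc39a8* (-0.93) and *Slc39a4* (-0.48) lie below -0.32, the 5th percentile of the genes whose counts averaged 1000 or more.

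Among the 14 zinc importer genes the picture was one of unequal shifts within the family. *Slc39a2* encodes ZIP2, a plasma membrane importer best known from keratinocytes. It averaged 146 counts in *Foxo1f/f* against 714 in *Foxo1d/d*, a log2 ratio of 2.22 (interval 2.08 to 2.38) and 4.68-fold higher. Its ratio ranked 26 from the top among the 15696 genes. *Slc39a8* encodes ZIP8, which carries zinc, manganese and iron into the cell. It averaged 6137 counts in *Foxo1f/f* against 3354 in *Foxo1d/d*, a log2 ratio of -0.93 (interval -0.97 to -0.90) and 1.91-fold lower.

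The most abundant importer per length was *Slc39a4*, which encodes ZIP4, the importer through which the gut absorbs dietary zinc. It averaged 13597 counts in *Foxo1f/f* against 10195 in *Foxo1d/d*, a log2 ratio of -0.48 (interval -0.50 to -0.46). *Slc39a14* encodes ZIP14, the closest relative of ZIP8, which also carries iron and manganese. It had 2552 and 3940 counts, a log2 ratio of 0.57 (interval 0.52 to 0.61), so the genes of this related pair lay on opposite sides of 0. In *Foxo1f/f* the level of *Slc39a8* was 3.19 times that of *Slc39a14*, and in *Foxo1d/d* it was 1.13 times. The level of *Slc39a4* was 79.0 times that of *Slc39a2* in *Foxo1f/f* against 12.1 times in *Foxo1d/d*.

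Of the 13 importers with enough counts, 11 stayed short of 1.5-fold, and 7 of these had a ratio smaller in size than 0.25. They include *Slc39a7*, the importer gene of the endoplasmic reticulum (0.21), *Slc39a1* (0.14) and *Slc39a3* (-0.13) for plasma membrane importers, and *Slc39a13* (-0.08) for an importer of the secretory pathway. *Slc39a6* (-0.32) and *Slc39a10* (-0.03) encode a pair of related plasma membrane importers. *Slc39a11* had a ratio of 0.36, and *Slc39a9* and *Slc39a12* lay within 0.02 of 0. *Slc39a12* rests on mean counts of 27.3 and 28.3.

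Summed per length, the importer messages came to 518 CPM per kb in *Foxo1f/f* against 470.1 in *Foxo1d/d*. *Slc39a4* held 36.5% of that sum in *Foxo1f/f* against 28.9% in *Foxo1d/d*, and *Slc39a8* held 11.6% and 6.68%. *Slc39a2* held 0.462% and 2.39%, so its large ratio rests on a small level. *Slc39a14* held 3.62% and 5.91%. *Slc39a7*, second in abundance, held 16.2% and 20.8%. The most abundant importer was thus the same in both genotypes, and the lower sum in *Foxo1d/d* rests on it, since without *Slc39a4* the sums were 329 and 334. In uterine tissue that was not separated into cell types, fewer cells of a type and less RNA per cell cannot be told apart.

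The zinc exporters differed little between genotypes. All 7 of the 10 genes with enough counts had ratios from -0.15 (*Slc30a6*) to 0.12 (*Slc30a2*). The summed level of all 10 was 92.5 CPM per kb in *Foxo1f/f* against 89.7 in *Foxo1d/d*. The most abundant per length was *Slc30a5*, whose product joins that of *Slc30a6* to load zinc into the early secretory pathway. It averaged 2515 and 2422 counts, a log2 ratio of -0.12 (interval -0.16 to -0.07). *Slc30a1*, the exporter gene of the plasma membrane and a target of MTF1, had a ratio of -0.02, and its counts may include reads of an antisense gene that shares 8.77% of its exon bases. *Slc30a7* (-0.01) serves the secretory pathway, *Slc30a9* (-0.01) mitochondria and *Slc30a4* (0.10) endosomal vesicles. *Slc30a2*, known from the zinc supply of milk, rests on mean counts of 18.7 and 21.3.

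**Figure D3:**
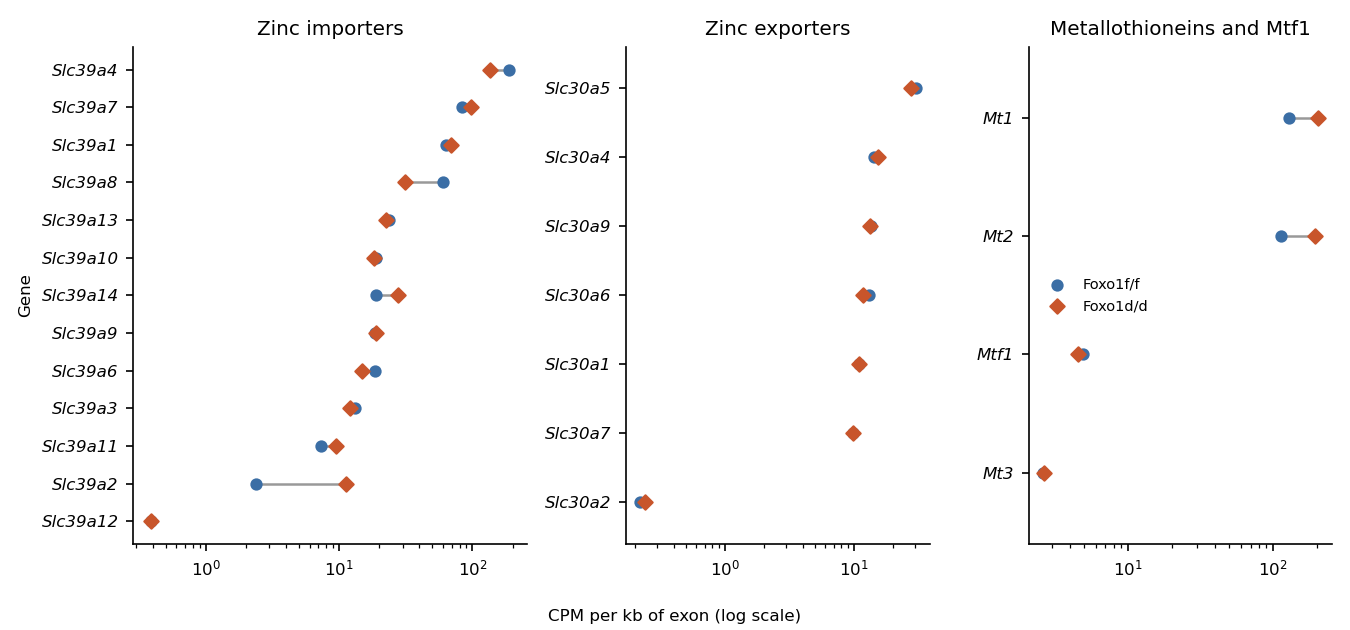
Levels of the zinc importers, zinc exporters and metallothioneins with *Mtf1*, as CPM per kb of exon (log scale), from the mean counts of *Foxo1f/f* (circles) and *Foxo1d/d* (diamonds), for genes averaging at least 10 counts. The symbols lie apart for *Slc39a2*, *Slc39a8*, *Slc39a4*, *Slc39a14*, *Mt1* and *Mt2*, and nearly on each other for the exporters.

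The metallothionein genes *Mt1* and *Mt2*, neighbours on chromosome 8, were both higher in *Foxo1d/d*. *Mt1* averaged 1852 counts in *Foxo1f/f* against 3058 in *Foxo1d/d*, a log2 ratio of 0.66 (interval 0.61 to 0.71). *Mt2* averaged 1504 counts in *Foxo1f/f* against 2703 in *Foxo1d/d*, a log2 ratio of 0.78 (interval 0.73 to 0.84). The genes are similar in sequence, so a part of their reads could be assigned to either. Both differed in the same direction, and the part of shared reads in this was not tested. Their levels were close to each other, with *Mt1* at 1.15 times the level of *Mt2* in *Foxo1f/f* and 1.05 times in *Foxo1d/d*. *Mtf1*, which encodes their zinc-sensing activator, averaged 983 and 939 counts, a log2 ratio of -0.13 (interval -0.20 to -0.05). *Mt3*, known mainly from brain, had 36.3 and 39 counts and a ratio of 0.04 (interval -0.35 to 0.43). Summed per length, the role came to 249 CPM per kb in *Foxo1f/f* against 406 in *Foxo1d/d*.

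MTF1 binds metal response elements, whose core is TGCNCNC, so the bases before the transcription starts were searched for these letters on both strands, together with the FOXO core GTAAACA. RefSeq promoters (GRCm38.p6) were at hand for 46 of the 55 genes, with 63 starts, and the 250 bases before each start were used. *Slc39a4* and *Slc39a14* were not among the 46. The sequences of *Mt2*, of *Slc39a8* at the first of its 2 starts and of *Steap1* are shown because they belong to genes past 1.5-fold in each direction and hold many, none and some of the matches. Each is written in the direction of transcription, and capitals mark metal response element cores on either strand (read as GNGNGCA on the other strand). The sequence of *Mt2* is the plus strand of chr8:94172368-94172617, that of *Slc39a8* the plus strand of chr3:135825029-135825278, and that of *Steap1* the minus strand of chr5:5749318-5749567.
Mt2: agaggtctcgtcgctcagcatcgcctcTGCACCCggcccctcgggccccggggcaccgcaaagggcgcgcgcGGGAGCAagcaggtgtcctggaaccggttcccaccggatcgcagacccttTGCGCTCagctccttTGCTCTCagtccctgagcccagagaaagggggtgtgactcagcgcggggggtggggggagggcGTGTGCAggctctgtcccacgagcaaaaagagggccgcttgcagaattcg
Slc39a8: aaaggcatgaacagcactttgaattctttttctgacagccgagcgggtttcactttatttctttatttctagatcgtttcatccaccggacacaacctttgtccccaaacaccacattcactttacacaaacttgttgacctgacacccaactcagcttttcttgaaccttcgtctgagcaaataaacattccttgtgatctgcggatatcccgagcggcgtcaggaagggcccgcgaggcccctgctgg
Steap1: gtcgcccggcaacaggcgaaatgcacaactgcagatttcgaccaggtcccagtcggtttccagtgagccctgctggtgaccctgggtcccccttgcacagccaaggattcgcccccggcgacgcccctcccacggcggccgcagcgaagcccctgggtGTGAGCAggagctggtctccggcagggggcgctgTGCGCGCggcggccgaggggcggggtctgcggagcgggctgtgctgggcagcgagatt

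The window of *Mt2*, the metallothionein gene with the higher ratio, held 5 cores. That of *Steap1*, the gene with the lowest ratio, held 2, and those of *Slc39a2* and the first start of *Slc39a8* held 0, while the other start of *Slc39a8* held 1. The windows of *Slc39a2* and *Slc39a8* lie inside the annotated genes, which begin at 51893082 on chromosome 14 and 135816882 on chromosome 3. Bases before those positions lay outside the windows of these genes. Most of the window of *Mt1* also lies inside its annotated gene, which begins at 94178883 on chromosome 8. The window of *Mt1* held 1, but GENCODE places further starts of *Mt1* 122 and 152 bases, and its starts of *Mt2* 46 and 242 bases, after the RefSeq start. Part of the bases before those lay outside the windows, so the 5 cores of *Mt2* and the 1 of *Mt1* do not make a contrast. The core is short and common. It was found before 44.4% of all 32851 starts, before 52.0% of the 15280 starts of genes averaging at least 10 counts, and before 51.9% of the 52 starts of metal handling genes with that count. Windows with 3 or more cores made up 6.45% of the starts of genes with that count, and 7 of the 52 metal handling starts (13.5%). Apart from that of *Mt2*, these 7 starts belonged to genes short of 1.5-fold. Their log2 ratios were 0.10 (*Slc30a4*), -0.09 (*Atp7a*), 0.05 (*Tfrc*), -0.12 (*Steap2*), 0.12 (*Slc30a2*) and 0.36 (*Slc39a11*). The FOXO core was found before 3.17% of all starts, before 2.17% of the starts of genes with that count and before 1 of the 52 (1.92%), a start of *Steap3*, whose ratio was 0.03. A match describes letters in these windows and does not show that a factor binds there.

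In iron uptake the genes of the transferrin route lay near 0, while some reductase genes lay further away. *Trf* encodes transferrin, the iron carrier of plasma and secretions, and averaged 1710 counts in *Foxo1f/f* against 1691 in *Foxo1d/d*, a log2 ratio of -0.08 (interval -0.13 to -0.02). *Tfrc*, the transferrin receptor gene, had 1661 and 1800 counts, a ratio of 0.05 (interval -0.00 to 0.11). *Slc11a2*, which encodes the divalent metal transporter DMT1 that moves iron out of endosomes, lay at 0.07. *Steap3*, the endosomal ferrireductase gene, lay at 0.03. The transferrin route thus showed no ratio past 0.08 in size in these steps.

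The other reductase genes lay further from 0. *Steap1* encodes a family member that lacks the NADPH-binding part of its relatives. It averaged 56.7 counts in *Foxo1f/f* against 27 in *Foxo1d/d*, a log2 ratio of -1.10 (interval -1.53 to -0.74) and 2.19-fold lower. It rests on 170 and 81 counts in all, and its interval is accordingly wide. *Steap4*, a reductase of iron and copper known from adipose tissue and inflammation, was the most abundant gene of the role per length. It averaged 3560 and 4822 counts, a log2 ratio of 0.38 (interval 0.34 to 0.41). *Cybrd1*, the duodenal cytochrome b ferrireductase gene, lay at -0.47 (interval -0.57 to -0.37) and *Steap2* at -0.12. *Slc11a1* encodes NRAMP1, a metal transporter of macrophage phagosomes, and had a ratio of 0.40 (interval 0.27 to 0.53) on mean counts of 274 and 378.

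Beside *Slc11a1*, *Slc40a1* and *Hmox1*, genes that macrophages use to recycle iron, stand the macrophage markers. All 7 markers with enough counts had ratios above 0, from 0.13 (*Cd68*) to 0.33 (*C1qa*), and 0 of them passed 1.5-fold. Their summed level was 228 CPM per kb in *Foxo1f/f* against 274 in *Foxo1d/d*, without *Emr1*, for which no exon length was matched. The most abundant per length was *C1qa*, and none of them was at 0. The part of macrophages in the iron results was not tested.

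Iron storage was the most abundant role per length and differed little. *Fth1*, which encodes the ferritin heavy chain with its iron-oxidizing centre, averaged 16715 and 16143 counts, a log2 ratio of -0.11 (interval -0.13 to -0.09). *Ftl1*, the ferritin light chain gene, had 13820 and 15457, a ratio of 0.10 (interval 0.08 to 0.12). The level of the heavy over the light chain was 1.26 in *Foxo1f/f* against 1.09 in *Foxo1d/d*. Ferritin genes have many processed copies in the mouse genome that can take or share reads, so these small differences are uncertain.

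Iron export held no gene past 1.5-fold. *Cp*, the most abundant gene of the role per length, encodes ceruloplasmin, a copper protein that oxidizes iron as it leaves the cell. It averaged 4221 counts in *Foxo1f/f* against 3432 in *Foxo1d/d*, a log2 ratio of -0.36 (interval -0.40 to -0.32). *Slc40a1*, the gene of the iron exporter ferroportin, had 727 and 885 counts, a ratio of 0.22 (interval 0.14 to 0.30). *Heph*, the membrane-bound ferroxidase gene, lay at -0.08, and *Hfe*, which takes part in the control of hepcidin, at 0.08. The exporter and the ferroxidases thus lay on opposite sides of 0, each within 1.5-fold.

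The iron regulatory proteins bind iron-responsive elements in the messages for ferritin, transferrin receptor, DMT1 and ferroportin. *Aco1*, which encodes the first of them and is the more abundant per length, averaged 2619 and 3142 counts, a log2 ratio of 0.20 (interval 0.16 to 0.24). *Ireb2*, which encodes the other, had a ratio of 0.05. Heme breakdown releases iron through the heme oxygenases. The inducible *Hmox1* had 670.3 and 816 counts, a ratio of 0.22 (interval 0.14 to 0.31). The constitutive *Hmox2* had 974 and 1119, a ratio of 0.14 (interval 0.07 to 0.21), but 41.4% of its exon bases lie under exons of *Cdip1* on the opposite strand, and whether the counting used strand is not given in the sources used here.

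Copper transport held no gene past 1.5-fold. *Slc31a1*, the gene of the copper importer CTR1, averaged 2278 and 2568 counts, a log2 ratio of 0.11 (interval 0.06 to 0.16). *Slc31a2*, which encodes the related CTR2 of intracellular vesicles, was the most abundant per length, with 1532 and 1886 counts and a ratio of 0.24 (interval 0.18 to 0.30). *Atp7a* encodes the copper ATPase of most tissues and had 1703 and 1671 counts, a ratio of -0.09 (interval -0.14 to -0.03). *Atp7b*, its counterpart of liver, had 16.7 and 12.7 counts, and its ratio of -0.43 has an interval from -1.11 to 0.18. A difference in *Atp7b* was not detectable at this depth.

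**Figure D4:**
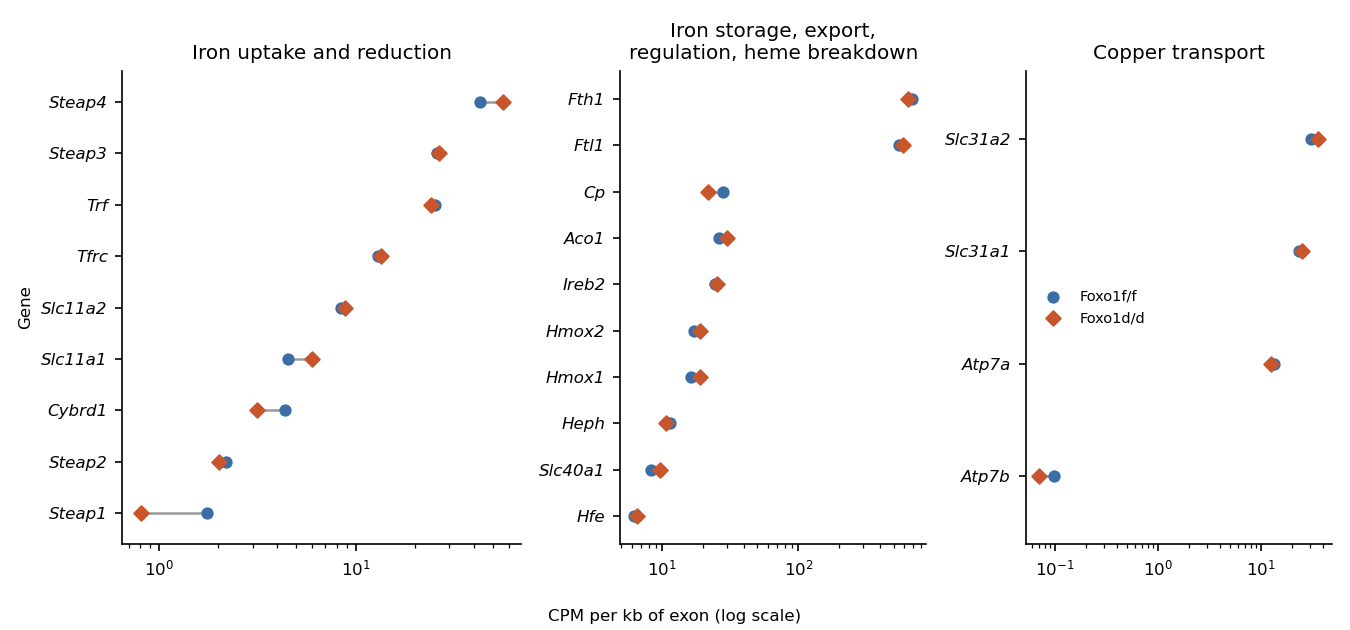
Levels of the iron and copper genes averaging at least 10 counts, as CPM per kb of exon (log scale), in *Foxo1f/f* (circles) and *Foxo1d/d* (diamonds). The ferritin genes *Fth1* and *Ftl1* stand above 500 in both genotypes, and *Steap1* shows the widest gap.

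The other 8 genes averaged fewer than 10 counts across the genotypes. *Tfr2*, an iron sensor of liver, had mean counts of 9 and 10, and the zinc importer gene *Slc39a5* 9 and 7.33. The exporter gene *Slc30a10* had 5.33 and 4, and *Slc30a3*, known from synaptic vesicles, 1.33 and 3.67. *Hephl1*, a further ferroxidase gene, *Hamp*, the gene of the liver hormone hepcidin, and *Mt4*, known from stratified epithelium, had at most 1.33 counts in either genotype. *Slc30a8*, of pancreatic islets, had no count in either. A count of 0 allows a CPM of up to 0.0383 in *Foxo1f/f* and 0.0367 in *Foxo1d/d*, the level of 3 counts over the libraries of a genotype. No direction was read for any of these genes.

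Further genes of the same pathways were taken from lists of zinc-dependent and zinc-binding, iron and copper proteins outside the 55. These lists were chosen with earlier results of these data known, so their shares describe the listed genes only. Of 10 zinc genes with enough counts, 4 were at least 1.5-fold higher in *Foxo1d/d* and 0 lower, which is 40% and 0%, beside 5.43% and 3.51% of all genes. The carbonic anhydrase genes *Car12* (1.57) and *Car2* (0.70) encode zinc enzymes, of the cell surface and the cytosol, and *Car12* had mean counts of 2495 and 7710. The alkaline phosphatase gene *Alpl* lay at 1.27, and *S100a9*, a subunit of the zinc-binding protein calprotectin, at 1.19 on mean counts of 12.3 and 30.7. The surface carbonic anhydrase gene *Car4* lay at -0.32. The median of the 10 was 0.13, beside 0.02 for all genes.

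Of 33 iron genes with enough counts, 4 were higher (12.1%, beside 5.43% of all genes) and 1 was lower (3.03%, beside 3.51%), with a median of 0.13. *Ltf*, which encodes the secreted iron binder lactoferrin, an estrogen-responsive product of uterine epithelium, had 559 and 1885 counts and a ratio of 1.69 (interval 1.61 to 1.77). *Lcn2*, whose product binds iron-loaded siderophores, lay at 0.62. *Hp* for haptoglobin (0.66) was higher and *Hpx* for hemopexin (-1.08) lower, and their products clear free hemoglobin and free heme. *Alas2*, the first enzyme of heme synthesis in red cells, lay at 1.39, while *Alas1*, its form in other cells, lay at 0.36. Of 15 copper genes, *Dbh*, a copper enzyme of catecholamine synthesis, was higher at 0.84 on mean counts of 22 and 42, which is 6.67% of the list, and 0 were lower. The collagen crosslinking genes *Lox* (-0.45) and *Loxl2* (0.49) encode copper enzymes and stayed short of 1.5-fold on opposite sides of 0.

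Markers of the cell types in the tissue were set beside these results. Uterine epithelial markers were present, among them, with their log2 ratios, *Krt18* (-0.03), *Epcam* (0.07), *Cdh1* (0.11), *Cldn4* (0.29), *Krt8* (0.48) and *Krt19* (1.22). The stromal markers summed to 1617 CPM per kb in *Foxo1f/f* against 1497 in *Foxo1d/d*, and 0 of the 7 passed 1.5-fold. Of 6 gland markers with enough counts, 3 were lower, which is 50%, beside 3.51% of all genes. These were *Spink3* (-4.70), *Prss29* (-4.46) and *Ttr* (-1.31), while *Sox9* (-0.30), *Foxa2* (0.04) and *Wfdc3* (0.38) stayed short of 1.5-fold. Without *Spink3*, for which no exon length was matched, the list summed to 468 CPM per kb in *Foxo1f/f* against 40.7 in *Foxo1d/d*. Nearly all of that gap is *Prss29*, the most abundant, and without it the sums were 22.6 and 20.4, so the sum does not describe the list as a whole. The part of glands in the lower ratios of *Slc39a8* and *Slc39a4* was not tested.

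Further marker lists stand beside the higher metal genes. All 6 adipocyte markers were at least 1.5-fold higher in *Foxo1d/d*, which is 100%, beside 5.43% of all genes. Their ratios ran from 1.70 (*Lep*) to 2.19 (*Cidec*), and none was at 0. Their summed level was 15.9 CPM per kb in *Foxo1f/f* against 56.4 in *Foxo1d/d*. *Lep* rests on mean counts of 7.67 and 28.3, so it reached the count minimum through *Foxo1d/d*. *Fabp4* was the most abundant per length in *Foxo1f/f* and *Cfd* in *Foxo1d/d*. Metallothioneins, *Slc39a14* and *Steap4* are also expressed in fat, and the part of fat in their ratios was not tested. Beside *Slc39a2* stand markers of stratified epithelium, a list chosen after its values were seen. Its values run from *Dsg3* (-1.22) and *Trp63* (0.08) over *Krt14* (2.01) to *Sprr2f* (4.37), and because of that choice no share of the list was read. The list summed to 4.39 and 53.5 CPM per kb, and *Sprr2f*, whose reads can be shared with close relatives, held most of the second value. No marker of the list was at 0, *Ivl* and *Krt6a* had too few counts, and the part of such cells in the ratio of *Slc39a2* was not tested. The study's RNA methods discard the cervix, a usual source of such cells, but they are written for mice after surgery. Whether the cervix was left out of these pools is not given there, and its part was not tested. Of 3 neutrophil markers with enough counts, *Mpo* (0.90) and *S100a9* were higher, which is 66.7%, beside 5.43% of all genes. *Retnlg*, the most abundant per length, lay at 0.31. All neutrophil markers together summed to 5.08 and 7.92 CPM per kb, *Elane* was at 0 in *Foxo1f/f*, and *S100a9* stands in the zinc list too.

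**Figure D5:**
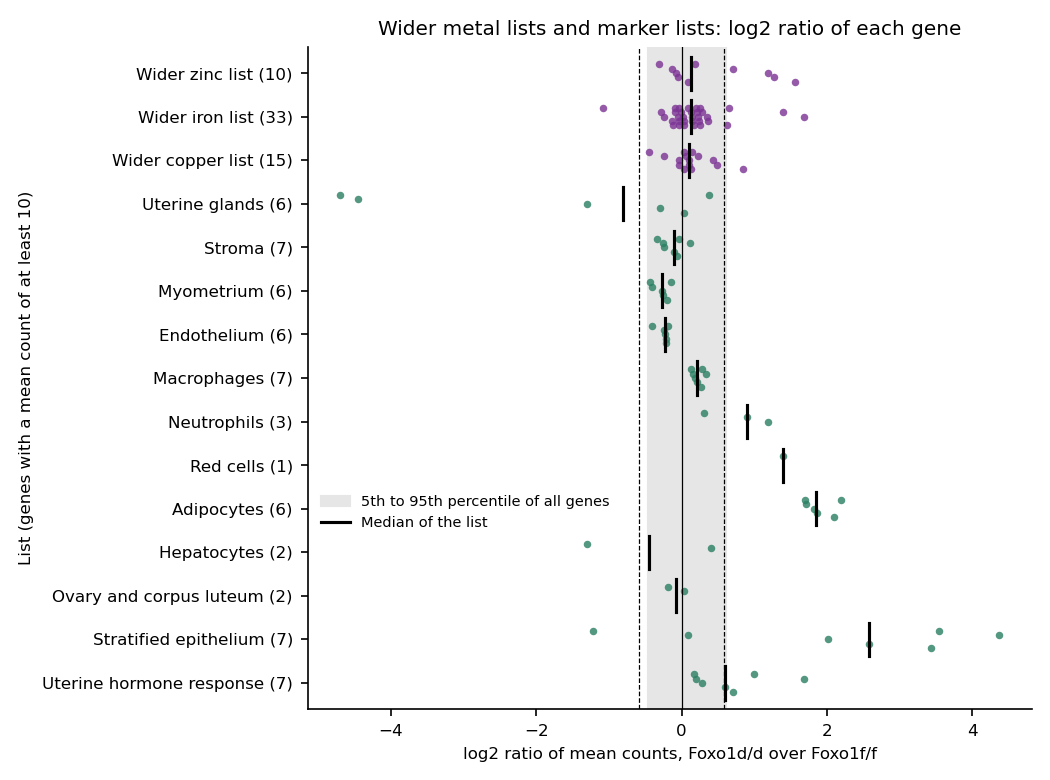
Log2 ratio of each gene averaging at least 10 counts in the wider zinc, iron and copper lists (purple) and in marker lists other than uterine epithelium (green), with the number of genes in parentheses, the median of each list as a black bar, dashed lines at 1.5-fold and the grey band from the 5th to the 95th percentile of all genes. The adipocyte markers all lie to the right of the line, and the wider metal lists have medians from 0.10 to 0.13.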

How the data were processed

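Before deposit the authors aligned paired-end reads (STAR), took out duplicates (Picard) and counted them over RefSeq genes (HTSeq), then ran edgeR. The paper's methods name the mouse genome mm10 and the submitters' processing notes mm9, and versions are not given in the sources used here. The deposited values are mean counts per genotype over 3 libraries, and times 3 all were whole within 0.001. The authors' deposited columns of fold change, log2 CPM, p-value and FDR hold their own comparison and were not used. Computed here with python 3.11.15, numpy 2.4.6, pandas 2.3.3 and scipy 1.17.1 were log2 ratios (pseudocount 1, scaled by totals), exact Clopper-Pearson 95% intervals from the summed counts (78375043 in *Foxo1f/f*, 81773890 in *Foxo1d/d*), shares past 1.5-fold among genes averaging at least 10 counts, and levels per kb from union exons of RefSeq-linked GENCODE M21 transcripts. Scripts were tested on simulated data. Named with both means were genes past 1.5-fold, the most abundant of each role and 13 genes central to each metal. The members and lists were chosen with earlier results of these data known. A planned epithelial marker is not reported here, so no count, sum or median of that list is given. Values of *Slc39a14*, *Cybrd1*, *Slc11a1* and the other genes named outside that rule were chosen after they were seen. Counting intervals leave out differences between pools, which limits every ratio given here. Alternatives were other pseudocounts, scalings, count minimums and folds.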

Additional observations from a re-analysis of the deposited data

How the results depend on the processing

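Under a pseudocount of 0.1 or 5, centring on the median gene or upper quartile scaling, 3 of the metal handling genes were higher and 2 lower by 1.5-fold, as in the report. The median of the 47 ran from 0.01 with centring on the median gene to 0.03. *Slc39a9* was the only one of the 47 whose ratio changed sign, with centring and with upper quartile scaling. The ratios of *Fth1*, *Ftl1* and *Slc39a4* moved past their narrow counting intervals with centring, and those of *Fth1* and *Ftl1* with upper quartile scaling. These scalings take the same amount, 0.0247 and 0.0209, off every ratio, so such changes follow by construction for ratios near 0 or with narrow intervals. Under a pseudocount of 5 the largest shift was 0.0959, for *Steap1*.

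The counts themselves depend on the threshold. With no count minimum 4 were higher and 4 lower of 54, each 7.41%, beside 8.11% and 5.79% of all genes taken in the same way. The same counts came from all 55 genes, an alternative chosen after seeing the data, since genes with a handful of counts enter. They are 7.27% each way, beside 6.78% and 4.85% of all 23420 genes. A mean count of at least 50 left 3 higher (7.14%) and 1 lower (2.38%) of 42, since *Steap1* drops out, beside 3.81% and 2.58% of all genes. The higher share is thus further above that of the table than in the report, on the same 3 genes. At a fold of 2 there were 1 higher and 1 lower, each 2.13% of the 47, beside 1.99% and 1.40% of all genes. At the smallest fold tried there were 7 and 7, each 14.9%, beside 12.5% and 8.996%.

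No paired analysis was possible because only mean counts per genotype were used. For the same reason leaving out each replicate and the edgeR fit were not run. Depth limits the genes under 100 counts, where the interval of *Atp7b* runs from -1.11 to 0.18.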

Other observations

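Further tissue markers were read as well. All 6 endothelial markers had ratios below 0, from -0.41 (*Vwf*) to -0.19 (*Tek*), and all 6 markers of myometrium, the muscle layer, from -0.43 (*Myh11*) to -0.15 (*Acta2*), with 0 past 1.5-fold. Of the 2 ovarian markers with enough counts, *Star* lay at 0.03 and *Inha* at -0.19, and of the 2 of liver *Ttr*, which stands in the gland list too, lay at -1.31 and *Serpina1a* at 0.40. Among red cell markers *Alas2* alone had enough counts, and it was higher at 1.39. *Hba-a1*, *Hba-a2*, *Hbb-b1* and *Hbb-b2* are near-identical globin copies and are listed at 0 in both genotypes, so these values were not read as a lack of blood.

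A list of hormone-responsive uterine genes, chosen after its values were seen, was read gene by gene and no share of it is given. *Ltf* (1.69), which belongs to the wider iron list as well, was higher in *Foxo1d/d*, as were *Lif* (0.99), *Areg* (0.71) and *Ihh* (0.60). Short of 1.5-fold lay *Muc1* at 0.28, the progesterone receptor gene *Pgr* at 0.20 and *C3*, the most abundant per length, at 0.17. The part of hormone response in the metal gene ratios was not tested.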
